A study of Mus musculus with 36 samples.

Results

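The semaphorin, plexin, ephrin and Eph genes of the mouse were measured in 3 liver cell types of mice depleted of Kupffer cells (the macrophages resident in liver sinusoids) and of WT mice. All gene symbols named as a semaphorin of classes 3 to 7, a plexin, an ephrin or an Eph receptor were taken, which gave 51 members among the 24421 symbols counted: 7 secreted class 3 semaphorins, 13 semaphorins of classes 4 to 7, 9 plexins, 5 ephrin-A genes, 3 ephrin-B genes, 9 EphA genes and 5 EphB genes. The rule uses names and no measured value, and the families were picked with earlier results of these data known. Bulk RNA sequencing had been done on hepatic stellate cells (HSCs, the vitamin A-storing pericytes of the sinusoid), liver sinusoidal endothelial cells (LSECs) and hepatocytes of C57BL/6 mice. Each cell type had 4 libraries from livers 12 h after diphtheria toxin (DT) had been injected to deplete Kupffer cells, 4 from livers 36 h after it, and 4 labelled WT, which the series' design text describes as PBS mice, 36 libraries in all. Strain is the one animal detail the labels carry: they name no age and no allele or transgene that would make cells sensitive to the toxin. There was no group that received the toxin and kept its Kupffer cells, so toxin and depletion cannot be told apart here. The labels do not say whether genotype also differed between WT and depleted mice. If it did, it cannot be told apart from them either. Nothing says that each library came from a separate mouse, and p-values measure the spread between these libraries.

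Semaphorins are guidance ligands, secreted in class 3 and mostly bound to the membrane in the other classes, and plexins are their receptors, which act on small GTPases and the cytoskeleton. Class 3 members mostly need a neuropilin as coreceptor. Ephrins are ligands held on the cell surface, by a lipid anchor in the A subfamily and by a transmembrane segment in the B subfamily, and their Eph receptor tyrosine kinases signal on contact between neighbouring cells, and the signal can run into both. Both systems were first described in axon guidance and are also known for patterning blood vessels, where ephrin-B2 marks arterial and EphB4 venous endothelium.

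Promoter sequence is shown for 4 members on which the results below turn: Plxnb1 and Sema4d, a receptor and its ligand that both fell in HSCs at 12 h, Sema4c, which rose there, and Efnb2, which fell in LSECs. Each run is a RefSeq window on GRCm38.p6, 250 bases before to 50 bases after an annotated start, 5′ to 3′ on the gene's strand. Capitals mark matches to the motifs searched. The windows are chr9:109095186-109095485 on the plus strand for Plxnb1, chr13:51756634-51756933 on the minus strand for Sema4d, chr1:36558332-36558631 on the minus strand for Sema4c and chr8:8661193-8661492 on the minus strand for Efnb2. The table lists 3 windows for Sema4d and 2 for Sema4c, and the one nearest the 5′ end of the gene was taken, which for Sema4d lies inside the gene as GENCODE places it (chr13:51685529-51793747).
Plxnb1: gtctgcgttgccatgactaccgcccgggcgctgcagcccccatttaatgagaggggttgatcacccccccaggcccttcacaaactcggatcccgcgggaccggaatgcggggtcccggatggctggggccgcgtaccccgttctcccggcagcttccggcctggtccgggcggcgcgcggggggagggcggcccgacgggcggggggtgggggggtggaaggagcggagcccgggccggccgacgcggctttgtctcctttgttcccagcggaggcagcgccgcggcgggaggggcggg
Sema4d: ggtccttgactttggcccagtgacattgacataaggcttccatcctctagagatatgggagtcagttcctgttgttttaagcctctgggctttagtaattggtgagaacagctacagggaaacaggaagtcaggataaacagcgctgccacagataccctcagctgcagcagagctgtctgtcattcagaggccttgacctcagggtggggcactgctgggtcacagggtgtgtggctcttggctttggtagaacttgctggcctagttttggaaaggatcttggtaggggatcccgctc
Sema4c: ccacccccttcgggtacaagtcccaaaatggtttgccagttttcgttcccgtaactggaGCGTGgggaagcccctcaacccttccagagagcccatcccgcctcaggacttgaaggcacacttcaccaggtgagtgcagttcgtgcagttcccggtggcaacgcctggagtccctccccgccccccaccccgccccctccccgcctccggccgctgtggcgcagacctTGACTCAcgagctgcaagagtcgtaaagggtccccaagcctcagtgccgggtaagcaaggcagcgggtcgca
Efnb2: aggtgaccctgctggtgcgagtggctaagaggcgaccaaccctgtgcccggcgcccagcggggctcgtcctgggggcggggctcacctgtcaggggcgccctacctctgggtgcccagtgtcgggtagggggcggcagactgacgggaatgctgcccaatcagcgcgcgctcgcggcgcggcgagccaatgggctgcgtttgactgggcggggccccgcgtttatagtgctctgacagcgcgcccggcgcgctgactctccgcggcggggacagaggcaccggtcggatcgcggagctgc
The motifs were GGG and TTCC with any 3 bases between them (an NF-kB form), TTCNNNGAA (STAT), TGANTCA (AP-1) and GCGTG (hypoxia and xenobiotic response), searched on both strands, with no overlap between matches in the sequences shown. Sema4c alone among the 45 members with a window held TGANTCA, which 7.92% of all 27025 windows of this length held. GCGTG stood in 21 of the 45 members' windows and in 32.5% of all windows, TTCNNNGAA in 3 members' windows (8.42% of all) and the NF-kB form in 2 (5.54% of all). The windows of Plxnb1, Sema4d and Efnb2 held none of the 4 motifs. Among the 10 members that fell in HSCs at 12 h, 9 had a window, with the NF-kB form in Sema6c, TTCNNNGAA in Epha3 and GCGTG in Ephb6, Plxnc1 and Sema6c. Of the 5 that rose, 4 had a window, with GCGTG in Plxna3, Plxnd1 and Sema4c.

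Libraries held 25404719 to 31734631 gene counts. Levels are given as counts per 1000000 gene counts (CPM) on 1 scale for all 36 libraries, as mean ± SD with n = 4 where not given by library. A gene was tested where it passed a filter on low counts, and "called" means an adjusted p under 0.05 over all genes tested. A log2 ratio is the fitted log2 fold change between the groups named. It includes a scaling for RNA composition (TMM) that the CPM levels lack. In the fit of WT cell types the scaling factors were 1.09 to 1.16 in HSCs, 1.21 to 1.29 in LSECs and 0.643 to 0.771 in hepatocytes. CPM gaps between hepatocytes and the other cell types are thus not on the scale tested. Of the 51 members, 40 passed in at least 1 cell type, 37 in HSCs, 27 in LSECs and 19 in hepatocytes. The other 11 (Efnb3, Epha5, Epha6, Epha8, Epha10, Ephb1, Sema3b, Sema3c, Sema3e, Sema3g and Sema4f) reached at most 0.524 CPM in any library, the value of Sema3b in 1 hepatocyte library, and Epha6 had no count in any of the 36. Defining markers stood with the labels in all 3 preparations: the sum of 12 HSC markers was 22517 to 45645 CPM in HSCs and 49.3 to 392 CPM in LSECs, and the sum of 12 LSEC markers was 1086 to 1745 CPM in HSCs and 26668 to 39353 CPM in LSECs. Both sums were at most 16.0 CPM in hepatocytes. The sum of 10 hepatocyte markers was 54138 to 77629 CPM in hepatocytes, 200 to 546 CPM in HSCs and 40.4 to 446 CPM in LSECs.

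In WT livers HSCs and LSECs held most of the families, with different members in each. Of 37 members tested across the 12 WT libraries, 19 were higher in HSCs than in both other cell types, beside 17.5% of all 13389 genes tested, 11 were higher in LSECs (18.5% of all genes) and 4 in hepatocytes (29.7% of all genes). For 3 (Plxnb2, Sema4b and Sema4c) no cell type stood above both others. By role, 2 of 3 class 3 semaphorins, 4 of 11 other semaphorins, 4 of 9 plexins, 2 of 3 ephrin-A genes, 4 of 5 EphA genes and 3 of 4 EphB genes were highest in HSCs, and both ephrin-B genes in LSECs. By pairs, 33 of the 37 were called between HSCs and LSECs, 22 of them higher in HSCs (29.7% of all genes) and 11 lower (27.1%), beside 56.8% of all genes in either direction. Between HSCs and hepatocytes 29 were higher in HSCs (43.2% of all genes) and 6 lower (35.9%; 79.1% in either direction), and between LSECs and hepatocytes 23 were higher in LSECs (42.7%) and 7 lower (36.3%; 79% in either direction). At 12 h, 16 of 36 members were highest in HSCs (15.5% of all genes), 10 in LSECs (16.7%) and 3 in hepatocytes (27.4%), and at 36 h these were 20 of 37 (16.1%), 10 (16.9%) and 3 (28.8%). Of 36 members tested in all 3 conditions, 31 were in the same class each time, 29 of them with the same cell type named. The share of all genes that kept their class was not computed, so this count is not read as a trait of the families.

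**Figure D1:**
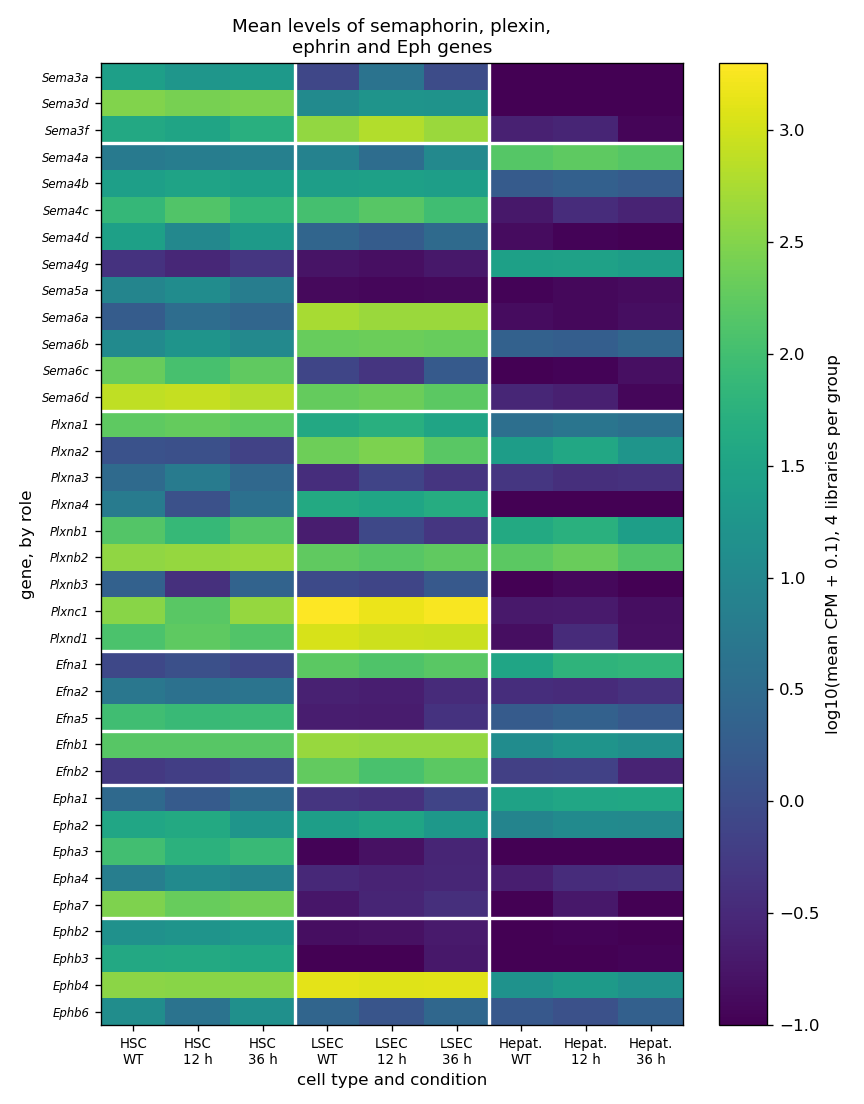
Mean levels of the 36 members that averaged 1 CPM or more in some group, one row per gene grouped by role and one column per cell type and condition (WT, 12 h and 36 h; mean of 4 libraries), as log10 of mean CPM + 0.1. Blocks of HSC rows (Epha3, Epha7, Ephb2, Ephb3) and LSEC rows (Sema6a, Plxna2, Efnb2) keep their columns in all 3 conditions, and the hepatocyte columns are high in Sema4a, Plxnb2, Efna1 and Epha1.

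Among class 3 semaphorins, Sema3d and Sema3f divided between the sinusoidal cell types. Sema3d, a secreted ligand of the neuropilin and plexin-D system, had 324, 317, 295 and 285 CPM in WT HSCs, 10.9, 13.7, 8.41 and 11.9 CPM in WT LSECs and no count in the 4 WT hepatocyte libraries (HSC over LSEC, log2 ratio 4.90, SE 0.19, adjusted p = 1.97e-09). Sema3f, known as a repellent that binds Nrp2, had 39.6, 40.1, 36.9 and 40.8 CPM in HSCs, 404, 419, 376 and 389 CPM in LSECs and 0.291, 0.181, 0.0369 and 0.0991 CPM in hepatocytes (HSC over LSEC, log2 ratio -3.19, SE 0.16, adjusted p = 8.17e-10). Sema3a, the founding repellent that binds Nrp1, had 28.7, 25.1, 28.8 and 24.3 CPM in HSCs and 0.742, 1.24, 0.565 and 0.356 CPM in LSECs, and no count in hepatocytes (log2 ratio 5.34, SE 0.32, adjusted p = 8.97e-08). The HSC and LSEC libraries did not overlap for any of these 3 genes. Class 3 semaphorins were thus at or near 0 in hepatocytes, where none passed the filter.

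Membrane semaphorins were led by Sema6d in HSCs, Sema6a and Sema6b in LSECs, and Sema4a in hepatocytes. Sema6d, a ligand of plexin-A1, had 744, 808, 761 and 735 CPM in HSCs, 201, 188, 207 and 183 CPM in LSECs and 0.182, 0.29, 0.221 and 0.0661 CPM in hepatocytes (HSC over LSEC, log2 ratio 2.11, SE 0.16, adjusted p = 5.72e-08). Sema6c had 210.2, 196, 192 and 190.5 CPM in HSCs, 0.99, 0.437, 0.233 and 1.07 CPM in LSECs and no count in hepatocytes (log2 ratio 8.32, SE 0.34, adjusted p = 3.66e-09). Sema6a, a ligand of plexin-A2 and plexin-A4, ran the other way, at 1.49, 2.07, 1.97 and 1.07 CPM in HSCs and 642, 529, 482 and 553 CPM in LSECs (log2 ratio -8.24, SE 0.29, adjusted p = 3.45e-11). Sema6b, which binds the same plexins, had 9.58, 11, 11.4 and 12.8 CPM in HSCs, 202, 201, 191 and 211 CPM in LSECs and 3.38, 2.0, 1.7 and 1.29 CPM in hepatocytes. One class of ligand was therefore split by gene, Sema6c and Sema6d high in stellate cells and Sema6a and Sema6b high in endothelium.

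Sema4a, known for costimulating T cells, had 4.64, 5.19, 6.36 and 6.37 CPM in HSCs, 8.45, 9.0, 7.74 and 6.22 CPM in LSECs and 91.1, 111, 186 and 187 CPM in hepatocytes, where libraries 3 and 4 stood above libraries 1 and 2 (LSEC over hepatocyte, log2 ratio -5.06, SE 0.30, adjusted p = 1.58e-09). Sema4g, a ligand of plexin-B2, stood at 0.331 ± 0.0336 CPM in HSCs, 0.0703 ± 0.0292 CPM in LSECs and 28.1 ± 4.26 CPM in hepatocytes. Sema4d, the ligand of plexin-B1 best known from lymphocytes as CD100, stood at 27.2 ± 2.61 CPM in HSCs and 2.4 ± 0.914 CPM in LSECs. Sema4c, another ligand of plexin-B2, had 67.9, 69.7, 69.9 and 89.3 CPM in HSCs and 165, 95, 86.1 and 83.7 CPM in LSECs, overlapping ranges that the test did not separate (log2 ratio -0.39, SE 0.27, adjusted p = 0.233), and at most 0.29 CPM in WT hepatocytes. Sema4b likewise stood at 26.9 ± 4.14 CPM in HSCs and 26 ± 2.63 CPM in LSECs.

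All 9 plexins were measured in both sinusoidal cell types. Plxnc1, the receptor of Sema7a, had 382, 380.4, 318 and 284 CPM in HSCs, 2009, 2252, 1597 and 1874 CPM in LSECs and at most 0.363 CPM in hepatocytes (HSC over LSEC, log2 ratio -2.36, SE 0.36, adjusted p = 6.39e-05). Plxnd1, a receptor required in developing vessels, had 108, 139, 117 and 125 CPM in HSCs and 1356, 1177, 928 and 897 CPM in LSECs (log2 ratio -3.01, SE 0.25, adjusted p = 1.81e-07). Plxna2 and Plxna4, receptors of the class 6 semaphorins, were also highest in LSECs, at 1.1 ± 0.468 and 6.08 ± 5.27 CPM in HSCs and 223 ± 49.5 and 41.4 ± 16.3 CPM in LSECs. The A plexins were thus not all on 1 side, since Plxna1 stood at 170.1 ± 11.3 CPM in HSCs and 38.7 ± 5.77 CPM in LSECs (log2 ratio 2.28, SE 0.19, adjusted p = 1.45e-07).

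Plxnb1, the receptor of Sema4d, had 131, 141, 139.7 and 147 CPM in HSCs, 0.0707, 0.0364, 0.166 and 0.213 CPM in LSECs and 35.9, 32.3, 49 and 48.1 CPM in hepatocytes (HSC over hepatocyte, log2 ratio 1.05, SE 0.19, adjusted p = 0.000187). It was the plexin with the widest gap between the sinusoidal cell types (HSC over LSEC, log2 ratio 10.24, SE 0.33, adjusted p = 2.07e-11). Plxnb2, widely expressed in epithelia, had 368, 388, 383 and 381 CPM in HSCs, 186, 191, 176 and 151 CPM in LSECs and 126, 112, 228 and 197 CPM in hepatocytes, and HSCs and hepatocytes were not called different (log2 ratio 0.47, SE 0.24, adjusted p = 0.0803). Plxnb3, a receptor of Sema5a, was low throughout, at 2.1 ± 0.38 CPM in HSCs and 0.822 ± 0.273 CPM in LSECs and no count in hepatocytes.

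Ephrin-A ligands differed in place. Efna5 had 82.9, 94.6, 104 and 105 CPM in HSCs, at most 0.32 CPM in LSECs and 0.872 to 2.07 CPM in hepatocytes (HSC over hepatocyte, log2 ratio 5.21, SE 0.32, adjusted p = 2.18e-09). Efna1, a ligand of Epha2 that inflammatory cytokines induce in endothelium, had 0.597, 0.882, 0.578 and 0.945 CPM in HSCs, 200.2, 119, 186 and 147 CPM in LSECs and 36.6, 52.6, 23.1 and 21.1 CPM in hepatocytes (LSEC over hepatocyte, log2 ratio 1.48, SE 0.23, adjusted p = 4.72e-05). At 12 h and 36 h the LSEC and hepatocyte levels of Efna1 were not called different (adjusted p = 0.358 and 0.166). Their libraries did not overlap in CPM, which lacks the scaling used in the test. Both ephrin-B genes were highest in LSECs. Efnb1 had 143, 138, 156 and 167 CPM in HSCs, 514, 405, 477 and 335 CPM in LSECs and 8.22, 10.7, 14.1 and 15.2 CPM in hepatocytes (HSC over LSEC, log2 ratio -1.37, SE 0.22, adjusted p = 8.62e-05). Efnb2, the arterial ephrin and main ligand of Ephb4, had 0.199, 0.882, 0.501 and 0.126 CPM in HSCs, 241, 179.9, 167 and 162 CPM in LSECs and 0.145, 0.145, 0.922 and 1.02 CPM in hepatocytes (log2 ratio -8.64, SE 0.55, adjusted p = 9.90e-09).

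Of the Eph receptors tested, 7 of 9 were highest in HSCs. Epha7 had 315, 287, 283 and 276 CPM in HSCs, at most 0.199 CPM in LSECs and no count in hepatocytes. Epha3, a receptor of Efna5, had 91.6, 94, 116 and 89.8 CPM in HSCs, 1 count in 1 of the 4 LSEC libraries and no count in hepatocytes. Ephb3 had 48.8, 34.5, 30.1 and 42.3 CPM in HSCs and no count in the 8 WT libraries of LSECs and hepatocytes. Ephb2, which like Ephb3 binds ephrin-B ligands, stood at 14.9 ± 1.45 CPM in HSCs and 0.0432 ± 0.0329 CPM in LSECs. Epha2 was shared, at 35.3 ± 12.8 CPM in HSCs, 25.8 ± 4.63 CPM in LSECs and 8.57 ± 1.47 CPM in hepatocytes, and its HSC and LSEC libraries overlapped (HSC over LSEC, log2 ratio 0.61, SE 0.24, adjusted p = 0.045).

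Ephb4, the venous receptor of ephrin-B2, had 359, 368, 336 and 351 CPM in HSCs, 1459.9, 1359.6, 1271 and 1250.1 CPM in LSECs and 9.09, 8.96, 21.8 and 21.2 CPM in hepatocytes (HSC over LSEC, log2 ratio -1.77, SE 0.31, adjusted p = 0.000231). Epha1 was the hepatocyte receptor, with 2.45, 3.5, 2.39 and 2.9 CPM in HSCs, 0.212, 0.801, 0.0997 and 0.356 CPM in LSECs and 30.8, 25.9, 35.2 and 30.1 CPM in hepatocytes (HSC over hepatocyte, log2 ratio -4.13, SE 0.32, adjusted p = 2.64e-08). Ephb4 overlaps Zan and Epha1 overlaps Zyx on the opposite strand, and the strand setting of the counting is not given in the sources used here, so reads of these pairs cannot be told apart. Sema4a likewise holds Mir7011 on its own strand. Per kilobase of exon, Ephb4 was the highest member in WT HSCs (76.2 CPM per kb), followed by Sema6d (72.1), Plxnb2 (49.2), Efnb1 (43.8) and Plxnc1 (40.9). It also led in WT LSECs (288 CPM per kb), ahead of Plxnc1 (232), Plxnd1 (149), Efnb1 (125) and Efna1 (89). In WT hepatocytes the order per kilobase began with Sema4a (26.6 CPM per kb), Plxnb2 (21.5) and Efna1 (18.2).

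In HSCs the members called at 12 h after the toxin included Plxnb1, Sema4d, Plxnc1 and Epha3, which were lower than in WT, and Sema4c, which was higher. Of 37 members tested, 5 were higher (beside 17% of all 12676 genes) and 10 lower (beside 15.1%) at 12 h than in WT, so 40.5% of the members were called against 32% of all genes. The comparisons of 12 h and of 36 h with WT share the WT libraries. The median log2 ratio was -0.02 over the members tested and 0.01 over all genes, and 22 of the 37 were not called. By role, 4 of 9 plexins, 2 of 5 EphA and 1 of 4 EphB genes fell, and 2 plexins rose. Of the semaphorins, 1 of 3 in class 3 and 2 of 10 in the other classes fell and 3 of those 10 rose, while none of the 6 ephrin genes tested was called.

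Plxnb1 and its ligand Sema4d fell together. Plxnb1 had 73.6, 84.2, 53.5 and 89.6 CPM in HSCs at 12 h, against 131, 141, 139.7 and 147 CPM in WT HSCs (log2 ratio -0.91, SE 0.14, adjusted p = 0.000479). Sema4d had 9.56, 13.3, 6.22 and 10.6 CPM at 12 h, against 25.1, 25.6, 30.8 and 27.2 CPM in WT (log2 ratio -1.46, SE 0.20, adjusted p = 0.000193). Every 12 h library lay below every WT library for both genes. The share of all genes whose groups did not overlap is not given. A lack of overlap, here or elsewhere, is thus not read as evidence apart from the tests. Plxnb3, the third B plexin, had 0.465, 0.173, 0.233 and 0.286 CPM at 12 h, against 1.76, 2.34, 2.51 and 1.8 CPM in WT, the steepest fall of any member (log2 ratio -2.85, SE 0.34, adjusted p = 8.47e-05). Plxnb2, the B plexin with the highest level in HSCs per kilobase, averaged 414 ± 60.9 CPM at 12 h and 380.1 ± 8.67 CPM in WT (log2 ratio 0.10, SE 0.12, adjusted p = 0.524).

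Plxnc1 had 181, 209, 95.6 and 151 CPM at 12 h, against 382, 380.4, 318 and 284 CPM in WT (log2 ratio -1.12, SE 0.22, adjusted p = 0.00216). Its ligand gene Sema7a was low, at 0.583 ± 0.229 CPM at 12 h and 0.28 ± 0.0452 CPM in WT (log2 ratio 1.03, SE 0.47, adjusted p = 0.114). Plxna4 averaged 1.08 ± 0.262 CPM at 12 h and 6.08 ± 5.27 CPM in WT (log2 ratio -2.50, SE 0.56, adjusted p = 0.00459). WT replicate 1 stood at 13.9 CPM against 2.62 to 4.11 CPM in the other WT libraries, and without it the log2 ratio was -1.69 (adjusted p = 0.0158). Plxna3 and Plxnd1 went up, at 6.12 ± 1.26 and 168 ± 37.5 CPM at 12 h against 3.0 ± 0.791 and 122 ± 12.9 CPM in WT (log2 ratio 1.01, SE 0.26, adjusted p = 0.0103 for Plxna3, and 0.43, SE 0.14, adjusted p = 0.030 for Plxnd1).

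Sema4c, the plexin-B2 ligand, rose. It had 111, 121, 180.4 and 128 CPM at 12 h, against 67.9, 69.7, 69.9 and 89.3 CPM in WT (log2 ratio 0.84, SE 0.14, adjusted p = 0.000857), with replicate 3 highest at 12 h and replicate 4 highest in WT and no overlap between the groups. Sema3a had 19.1, 16.5, 20.5 and 15.6 CPM at 12 h, against 28.7, 25.1, 28.8 and 24.3 CPM in WT, again without overlap (log2 ratio -0.59, SE 0.11, adjusted p = 0.00147). Sema6c averaged 113 ± 42.1 CPM at 12 h and 197 ± 8.95 CPM in WT (log2 ratio -0.81, SE 0.22, adjusted p = 0.0123). The other class 6 members called were Sema6a, at 3.36 ± 1.56 CPM at 12 h and 1.65 ± 0.461 CPM in WT (log2 ratio 1.01, SE 0.34, adjusted p = 0.0365), and Sema6b, at 16.9 ± 5.37 CPM at 12 h and 11.2 ± 1.31 CPM in WT (log2 ratio 0.57, SE 0.20, adjusted p = 0.0449). Sema6d, the semaphorin highest in HSCs per kilobase, was not called (log2 ratio 0.11, SE 0.13, adjusted p = 0.563).

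Among Eph receptors, Epha3 had 50.3, 63.5, 51.2 and 69.5 CPM at 12 h, against 91.6, 94, 116 and 89.8 CPM in WT (log2 ratio -0.75, SE 0.14, adjusted p = 0.00145). Ephb6, a member whose kinase domain is inactive, had 6.44, 4.25, 2.33 and 3.83 CPM at 12 h, against 14.9, 11.2, 13.1 and 11 CPM in WT (log2 ratio -1.58, SE 0.26, adjusted p = 0.000747). For both receptors all 12 h libraries lay below all WT libraries. Epha7 averaged 199 ± 66.8 CPM at 12 h and 290.4 ± 17.3 CPM in WT, with replicate 3 lowest at 113 CPM (log2 ratio -0.56, SE 0.20, adjusted p = 0.0456). The ligand Efna5, which binds several EphA receptors, averaged 82.5 ± 23.3 CPM at 12 h and 96.6 ± 10.2 CPM in WT (log2 ratio -0.24, SE 0.19, adjusted p = 0.362). Of these HSC calls, 4 at 12 h were lost under some of 14 other settings of the analysis: Epha7 under 7 (adjusted p up to 0.102), Plxnd1 under 6 (0.0892), Sema6a under 6 (0.136) and Sema6b under 8 (0.161). The single libraries whose omission ended the call were 12 h replicate 4 and any WT replicate for Epha7, 12 h replicate 3 and WT replicates 1, 3 and 4 for Plxnd1, 12 h replicates 1 and 2 and WT replicates 1, 3 and 4 for Sema6a, and 12 h replicates 3 and 4 and any WT replicate for Sema6b. For the other 11 the call held under all 14. DESeq2, 1 of these settings, also called Epha4 higher and Sema3f lower at 12 h (log2 ratio 0.70 and -0.31, adjusted p = 0.0369 and 0.0368). It called 4514 genes in all, against 4060 by edgeR.

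**Figure D2:**
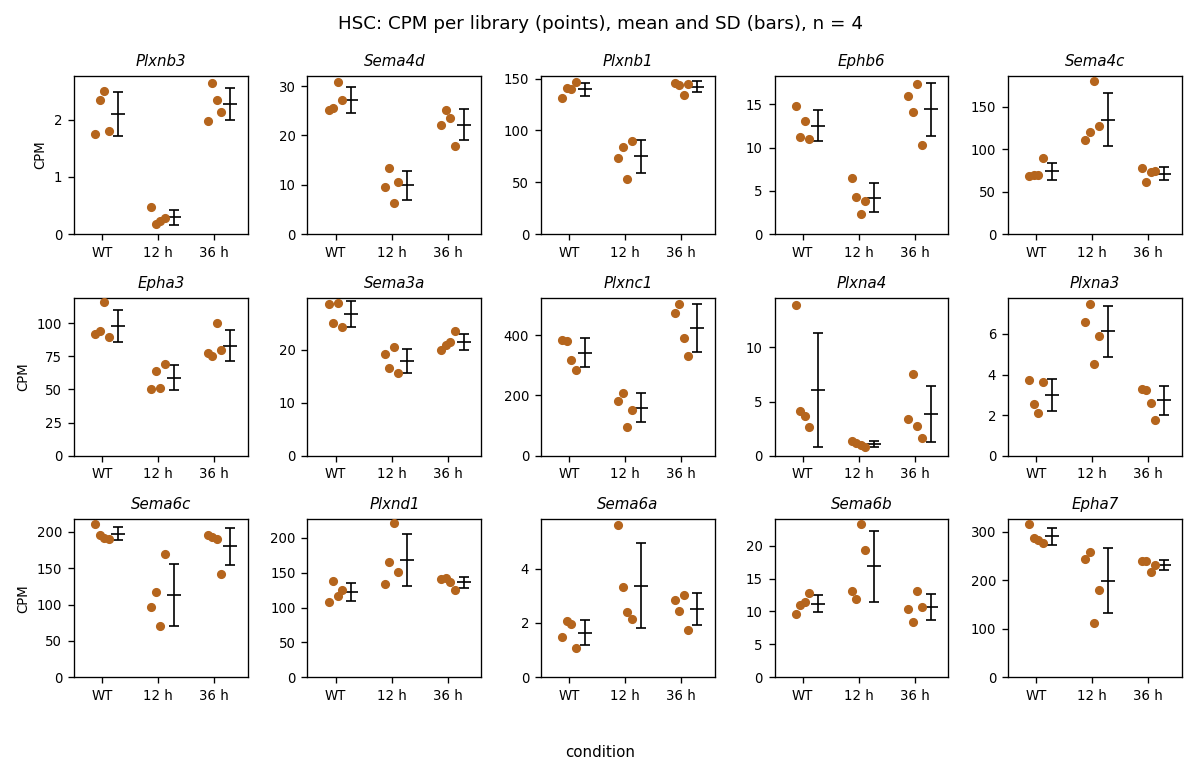
CPM of the 15 members called in HSCs at 12 h, one panel per gene with its own axis from 0, in WT, 12 h and 36 h libraries; points are the 4 libraries of a group and the bar is mean ± SD. The 12 h points of Plxnb1 (53.5 to 89.6 CPM) sit below all WT and 36 h points, and those of Sema4c (111 to 180 CPM) above them.

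At 36 h no member was called against WT in HSCs (0 of 37, beside 0.142% of all genes), with 6 members at an unadjusted p under 0.05, beside 868 of all 12676 genes. DESeq2 called 1 member, Epha2 (log2 ratio -1.03, adjusted p = 0.00523), among 124 genes in all, against 18 by edgeR. Epha2 had 17.8, 16.9, 14.1 and 20.6 CPM at 36 h, against 27.6, 53.7, 34.2 and 25.8 CPM in WT, with every 36 h library below every WT library (edgeR, log2 ratio -1.04, SE 0.23, adjusted p = 0.143). Sema7a and Ephb2 stood at 0.779 ± 0.394 and 21.1 ± 2.6 CPM at 36 h and 0.28 ± 0.0452 and 14.9 ± 1.45 CPM in WT (adjusted p = 0.417 and 0.299).

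Set against 12 h, 14 of 37 members were called at 36 h (37.8%, beside 27.9% of all genes), 9 higher (12.9% of all genes) and 5 lower (15% of all genes). Plxnb1 had 146, 144, 134 and 145 CPM at 36 h, against 73.6, 84.2, 53.5 and 89.6 CPM at 12 h (log2 ratio 0.93, SE 0.14, adjusted p = 0.000507). Sema4d had 22.2, 25.2, 23.6 and 17.9 CPM at 36 h, against 9.56, 13.3, 6.22 and 10.6 CPM at 12 h (log2 ratio 1.17, SE 0.20, adjusted p = 0.00093). Receptor and ligand were again called in the same direction, now up. Plxnb3, Plxnc1, Plxna4, Ephb6, Epha3, Sema6c and Sema3f were the other members called higher (log2 ratio 2.97, 1.43, 1.85, 1.78, 0.51, 0.68 and 0.71). The 5 lower were Sema4c, Epha2, Plxna3, Sema5a and Sema6b (log2 ratio -0.90, -1.22, -1.15, -0.89 and -0.65). This comparison uses the same 12 h libraries as the one with WT. Calls for Sema6b and Sema6c were lost under 7 of 14 alternatives each, Plxna4 under 3 and Epha3 under 1 (adjusted p up to 0.152, 0.0796, 0.102 and 0.0549). The single libraries concerned were 12 h replicates 3 and 4 and 36 h replicates 1, 2 and 4 for Sema6b, replicates 1, 2 and 3 of both times for Sema6c, 12 h replicates 3 and 4 and 36 h replicate 2 for Plxna4, and 36 h replicate 3 for Epha3.

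Markers moved in the same libraries. The HSC marker sum was 22517 to 35627 CPM at 12 h and 37409 to 45645 CPM in WT, lowest at 12 h in replicate 3 and at 36 h in replicate 4 (25152 CPM). Of the 12 markers, 3 were higher (beside 17% of all genes) and 4 lower (beside 15.1%) at 12 h. The sum of 10 Kupffer cell markers in HSC libraries was 0.322 to 2.99 CPM at 12 h, with Cd163, Clec4f and Timd4 at 0 in all 4 libraries, and 3.22 to 17.8 CPM in WT, with none at 0. The LSEC marker sum in HSC libraries was 1086 to 1396 CPM at 12 h and 1511 to 1610 CPM in WT. How much LSEC material the HSC libraries held was not tested. Kdr, which is in that sum, averaged 5.89 CPM in WT HSCs and 4.41 CPM in HSCs at 12 h, beside 6263 CPM in WT LSECs. Other markers of the list thus made up most of the sum in HSCs. Efna1 averaged 0.751 CPM in WT HSCs and 1.01 CPM in HSCs at 12 h, beside 163 CPM in WT LSECs. In bulk RNA fewer cells of a type and less RNA per cell cannot be told apart. The part of these shifts in the results was not tested. In a fit without the replicates numbered 3 at 12 h and 4 at 36 h, Epha7, Plxnd1 and Sema6b were no longer called at 12 h against WT (adjusted p = 0.0508, 0.0729 and 0.161).

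In LSECs 4 members were called at 12 h. Of 27 tested, 2 were higher (beside 9.74% of all 12286 genes) and 2 lower (beside 8.5%), so 14.8% of the members against 18.2% of all genes, with a median log2 ratio of -0.12 over the members tested and -0.02 over all genes. Both called up were class 3 semaphorins. Sema3f had 632, 731, 620.2 and 616 CPM in LSECs at 12 h, against 404, 419, 376 and 389 CPM in WT LSECs (log2 ratio 0.72, SE 0.11, adjusted p = 0.00122). Sema3a had 3.08, 1.68, 8.1 and 3.86 CPM at 12 h, against 0.742, 1.24, 0.565 and 0.356 CPM in WT (log2 ratio 2.53, SE 0.54, adjusted p = 0.00616). All 4 libraries at 12 h lay above all WT libraries for both genes, with replicate 3 highest for Sema3a.

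The members called down were a membrane ligand of each family. Efnb2 had 105, 117, 122 and 124 CPM at 12 h, against 241, 179.9, 167 and 162 CPM in WT (log2 ratio -0.67, SE 0.13, adjusted p = 0.0034). Sema4a had 2.56, 5.41, 2.08 and 3.45 CPM at 12 h, against 8.45, 9.0, 7.74 and 6.22 CPM in WT (log2 ratio -1.22, SE 0.27, adjusted p = 0.00721). Neither gene had overlapping groups. Ephb4, the receptor of Efnb2, averaged 1238 ± 136 CPM at 12 h and 1335 ± 95.7 CPM in WT (log2 ratio -0.10, SE 0.10, adjusted p = 0.536). None of the 9 plexins was called: Plxnd1 averaged 930.2 ± 257 CPM at 12 h and 1089.6 ± 218 CPM in WT, and Plxnc1 1512 ± 280.3 CPM at 12 h and 1933 ± 273 CPM in WT (adjusted p = 0.468 and 0.158). The 4 calls held under all 14 other settings, and DESeq2 added 3 members, Ephb6, Plxna1 and Plxnb1. Over all genes DESeq2 called 2797, against 2241 by edgeR.

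At 36 h no LSEC member was called against WT (0 of 27, beside 0% of all genes, and 0 by DESeq2, beside 109 genes in all). Of the members, 4 stood at an unadjusted p under 0.05, beside 1288 of all 12286 genes. Against 12 h, 8 of 27 were called (29.6%, beside 21.3% of all genes), 2 of them higher (10.6% of all genes) and 6 lower (10.8% of all genes) at 36 h. Sema4a had 10.3, 9.58, 13.2 and 8.15 CPM at 36 h, against 2.56, 5.41, 2.08 and 3.45 CPM at 12 h (log2 ratio 1.58, SE 0.27, adjusted p = 0.00158). Sema3f had 399.8, 373, 482 and 544 CPM at 36 h, against 632, 731, 620.2 and 616 CPM at 12 h (log2 ratio -0.57, SE 0.11, adjusted p = 0.00364). Sema3a and Efnb2 averaged 0.888 ± 0.432 and 162 ± 13.7 CPM at 36 h and 4.18 ± 2.77 and 117 ± 8.7 CPM at 12 h (log2 ratio -2.29 and 0.43). This comparison uses the 12 h libraries by which these 4 members had been called against WT. The others called lower at 36 h than at 12 h were Epha2, Plxna1, Plxna2 and Sema4c (log2 ratio -0.84, -0.71, -0.90 and -0.68). Efnb2 lost this call under 5 of 14 alternatives (adjusted p up to 0.0941), among them the omission of 12 h replicate 1 or 2 or of 36 h replicate 1 or 3. Sema4c lost it under 7 (up to 0.118), the omission of any library but 36 h replicate 4.

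**Figure D3:**
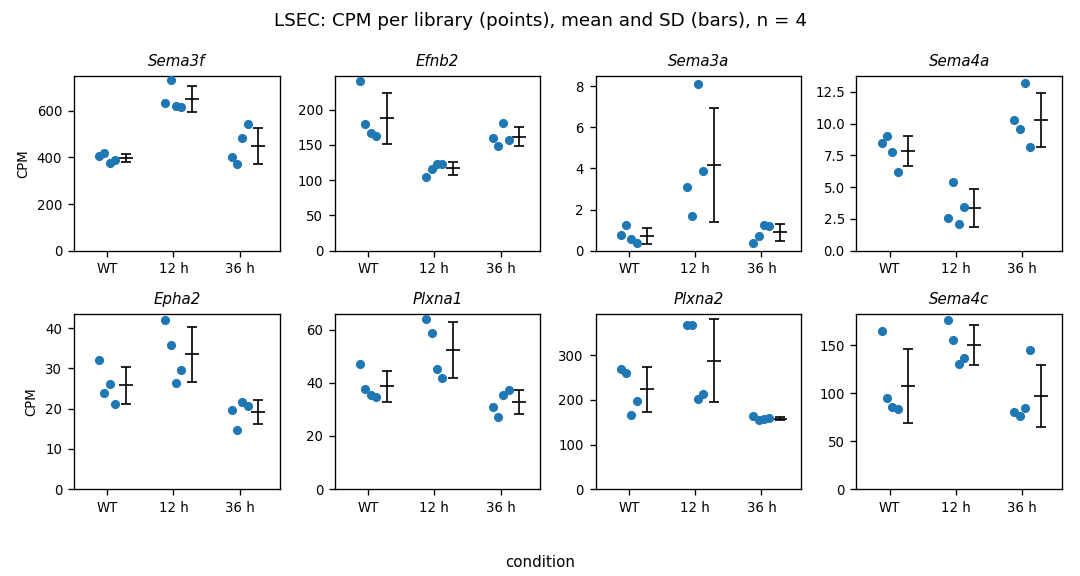
CPM of the 8 members called in LSECs at 12 h or between 12 h and 36 h, one panel per gene with its own axis from 0, in WT, 12 h and 36 h libraries; points are the 4 libraries of a group and the bar is mean ± SD. Sema3f at 12 h (616 to 731 CPM) sits above both other groups, and Efnb2 at 12 h (105 to 124 CPM) below them.

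The sum of 10 Kupffer cell markers in LSEC libraries was 2.67 to 6.75 CPM at 12 h, with Timd4 at 0, and 14.3 to 32.1 CPM in WT, with none at 0. That of 12 HSC markers was 177 to 266 CPM at 12 h and 49.3 to 139 CPM in WT, with none at 0 in either group. At 36 h the HSC marker sum in LSECs was 96.8 to 130 CPM in replicates 1 to 3 and 392 CPM in replicate 4, and the Kupffer cell marker sum 1.60 to 21.3 CPM. Epha7, at 199 CPM in HSCs at 12 h, averaged 0.176 CPM in LSECs at 12 h and 0.0852 CPM in WT, and Epha3, at 58.6 CPM in HSCs at 12 h, averaged 0.0553 CPM in LSECs at 12 h and 0.00884 CPM in WT. The LSEC marker sum was 35948 to 39353 CPM in WT, 26668 to 32057 CPM at 12 h and 33518 to 39331 CPM at 36 h. Their part in the LSEC results was not tested.

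The response at 12 h was compared between HSCs and LSECs in 1 fit of their 24 libraries. Of 37 members tested, 2 had a higher and 4 a lower response in HSCs than in LSECs, beside 1.9% and 1.58% of all 13456 genes and 3.47% in either direction. Sema3a fell in HSCs and rose in LSECs (difference of log2 ratios, HSC minus LSEC, -3.11, SE 0.50, adjusted p = 0.000814). Sema3f, which rose in LSECs, differed likewise (-1.01, SE 0.16, adjusted p = 0.000655). In HSCs it had 27.4 to 37.8 CPM at 12 h and 36.9 to 40.8 CPM in WT. That change was not called by edgeR (adjusted p = 0.0508) and was called lower by DESeq2 (log2 ratio -0.31, adjusted p = 0.0368). Both secreted class 3 semaphorins that LSECs raised were therefore separated from the HSC response by the test.

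Plxnb3 fell in HSCs, and in LSECs it averaged 0.692 ± 0.299 CPM at 12 h and 0.822 ± 0.273 CPM in WT (difference -2.61, SE 0.49, adjusted p = 0.00286). Plxnb1 fell in HSCs, and in LSECs it had 0.342, 0.419, 1.43 and 0.787 CPM at 12 h, against 0.0707, 0.0364, 0.166 and 0.213 CPM in WT (difference -3.47, SE 0.68, adjusted p = 0.00428). These LSEC levels were under 1.5 CPM beside 53.5 CPM or more in HSCs, and without the libraries numbered 3 at 12 h and 4 at 36 h the difference was -2.79 (adjusted p = 0.00886). The HSC marker sums in LSECs given above were higher in the same 12 h group, and their part in this difference was not tested. Sema4a fell in LSECs, and in HSCs it averaged 6.49 ± 1.53 CPM at 12 h and 5.64 ± 0.865 CPM in WT (difference 1.41, SE 0.33, adjusted p = 0.016), with an adjusted p of 0.0619 in the fit without those libraries. Sema6a rose in HSCs and averaged 443 ± 42.3 CPM at 12 h and 551 ± 66.9 CPM in WT in LSECs (difference 1.34, SE 0.34, adjusted p = 0.0258), a call lost without HSC replicate 1 at 12 h, HSC replicate 1 or 4 in WT or LSEC replicate 1 in WT (adjusted p = 0.054 to 0.0644). At 36 h the difference was called for no member (0% of all genes, and 0 by DESeq2, beside 3 genes in all). At an unadjusted p under 0.05 stood 4 members, beside 599 of all 13456 genes. The smallest adjusted p was 0.754, for Sema6a. When hepatocyte libraries were added to the fit of the 12 h difference, 3 members (Sema3a, Plxnb1 and Plxnb3) were called, not 6.

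**Figure D4:**
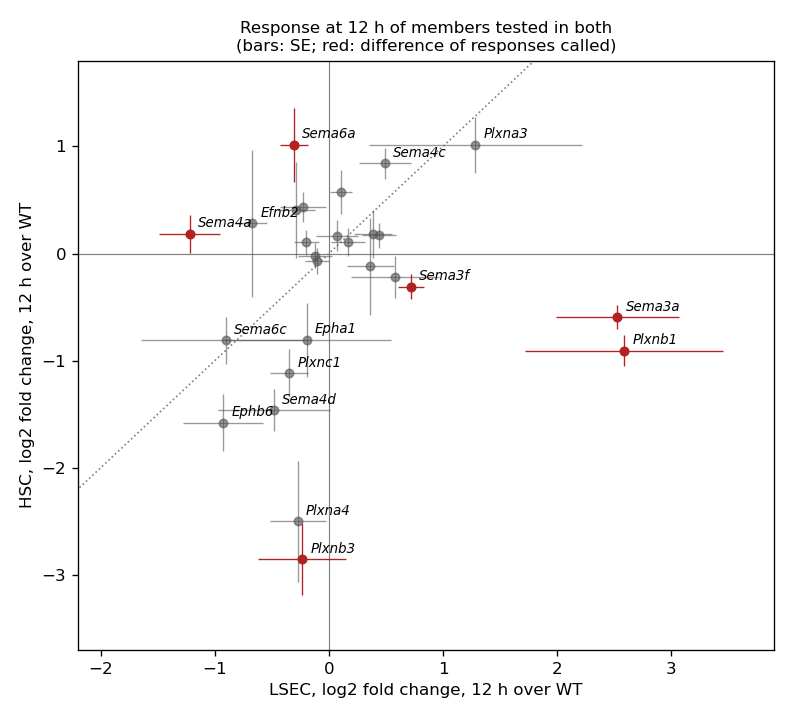
Log2 fold change at 12 h over WT in LSECs (x axis) and HSCs (y axis) for the 27 members tested in both, with SE bars; the dotted line marks equal responses and red points the 6 members whose difference was called. Sema3a and Plxnb1 lie at the lower right, at -0.59 and -0.91 in HSCs.

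Hepatocytes gave no called member in any comparison between conditions: 0 of 19 at 12 h against WT, at 36 h against WT and at 36 h against 12 h, beside 0% of all 11326 genes in each. At an unadjusted p under 0.05 stood 1, 1 and 2 members, beside 453, 564 and 725 of all 11326 genes. DESeq2 called 1 member in all, Efna1 at 36 h against WT (log2 ratio 1.04, adjusted p = 0.0234). Over all genes it called 47, 59 and 24 in these comparisons. Efna1 had 73.6, 75.5, 69 and 52.6 CPM at 36 h, against 36.6, 52.6, 23.1 and 21.1 CPM in WT, overlapping only at the lowest 36 h and the highest WT library (edgeR, log2 ratio 1.04, SE 0.25, adjusted p = 0.369). At 12 h it had 57.6, 83, 51.2 and 57.4 CPM (log2 ratio 0.91, SE 0.25, adjusted p = 0.585).

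Hepatocyte libraries of all conditions lay on both sides of 100 CPM of Malat1, a nuclear RNA, and levels are given by side, with no test between the sides. Above it were replicates 1 and 2 in WT, 1 at 12 h and 1 and 2 at 36 h. The summed level of all members was 405 to 418 CPM above and 592 to 652 CPM below in WT, 559 CPM above and 697 to 716 CPM below at 12 h, and 299 to 490.3 CPM above and 552 to 698 CPM below at 36 h. Sema4a, the leading hepatocyte member per kilobase, had 97.7 and 104 CPM above and 183 and 212 CPM below at 36 h, against 91.1 and 111 CPM above and 186 and 187 CPM below in WT. Plxnb2 had 42.0 and 141 CPM above and 145 and 220.4 CPM below at 36 h, against 112 and 126 CPM above and 197 and 228 CPM below in WT. Several other members, among them Ephb4, Sema4b and Plxnb1, were also lower above than below in WT, without overlap. Ephb4 had 9.09 and 8.96 CPM above and 21.8 and 21.2 CPM below. Efna1 and Sema6b ran the other way in WT, Efna1 with 36.6 and 52.6 CPM above and 23.1 and 21.1 CPM below. For Epha1 the sides overlapped in WT, at 30.8 and 25.9 CPM above and 35.2 and 30.1 CPM below. With the side as a term in the fit, Efna1 had the smallest adjusted p at 36 h against WT, 0.0909 (log2 ratio 1.07 ± 0.22 SE). No member was called with that term either. Over all genes that fit called 2 at 12 h against WT, 10 at 36 h against WT and 0 at 36 h against 12 h. The sum of Kupffer cell markers in hepatocyte libraries was 13.4 and 22.2 CPM in WT replicates 1 and 2, 1.29 and 2.54 CPM in WT replicates 3 and 4, at most 0.364 CPM at 12 h and at most 1.53 CPM at 36 h, and its part in these values was not tested.

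**Figure D5:**
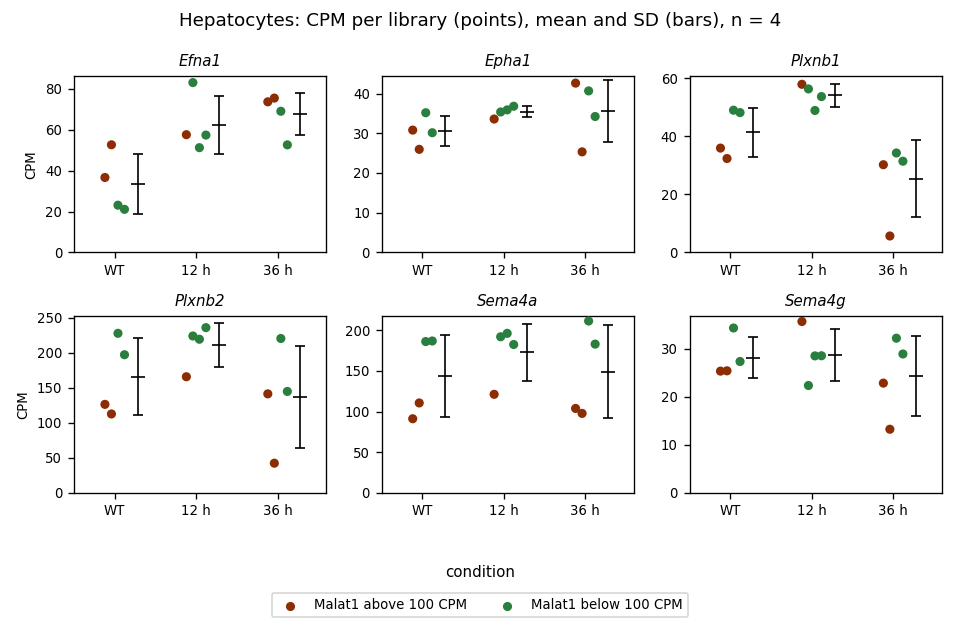
CPM of 6 members in the hepatocyte libraries, one panel per gene with its own axis from 0, in WT, 12 h and 36 h; points are libraries, coloured by whether Malat1 was above or below 100 CPM, and the bar is mean ± SD (n = 4). For Sema4a the libraries above 100 CPM of Malat1 (91.1 to 121 CPM) lie below all others (183 to 212 CPM) in every condition.

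Other genes of the pathways are given from lists chosen beside the members. Their counts are read against the shares of all genes called at 12 h, which were 17% higher and 15.1% lower in HSCs and 9.74% higher and 8.5% lower in LSECs; the lists are small, and no list was tested against other genes. Of 11 semaphorin coreceptors and other receptors tested in HSCs at 12 h, 2 rose and 2 fell. Nrp1, the coreceptor of Sema3a, fell in both sinusoidal cell types, to 78.2 ± 13.8 CPM in HSCs at 12 h, against 151 ± 10.5 CPM in WT (log2 ratio -0.97, SE 0.13, adjusted p = 0.000228), and to 1907 ± 429 CPM in LSECs at 12 h, against 3023 ± 122 CPM in WT (log2 ratio -0.66, SE 0.16, adjusted p = 0.012). Erbb2, a partner of plexin-B receptors, rose in HSCs and fell in LSECs (log2 ratio 0.42 and -0.36; difference of responses 0.80, SE 0.16, adjusted p = 0.00428). Itga1 fell and Cd72, a receptor of Sema4d, rose in HSCs (log2 ratio -0.69 and 0.61). In LSECs 1 of 9 rose (9.74% of all genes), Itgb1, and 3 fell (8.5%), Nrp1, Erbb2 and Kdr (log2 ratio of Itgb1 0.45 and of Kdr -0.58).

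Of 25 effectors of semaphorins and plexins tested in HSCs at 12 h, 3 rose and 4 fell, beside the 17% and 15.1% of all genes. Rnd1, a small GTPase that binds plexins, averaged 11.2 ± 5.14 CPM in HSCs at 12 h and 0.682 ± 0.433 CPM in WT (log2 ratio 4.00, SE 0.59, adjusted p = 0.000311). In LSECs it averaged 21.3 ± 21.5 CPM at 12 h and 4.03 ± 2.35 CPM in WT, with groups that overlapped (log2 ratio 2.39, SE 0.58, adjusted p = 0.0122). Dpysl2 (CRMP2), which carries Sema3a signals to microtubules, fell in HSCs, to 198 ± 45.3 CPM at 12 h, against 466 ± 46.4 CPM in WT (log2 ratio -1.25, SE 0.16, adjusted p = 0.000147), and Rnd2 and Rnd3 fell there too (log2 ratio -0.91 and -0.90). In LSECs 1 of 24 rose (9.74% of all genes), Rnd1, and 1 fell (8.5%), Rhod (log2 ratio -0.38).

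Of 22 ephrin and Eph effectors tested in HSCs at 12 h, 2 rose and 2 fell, again beside 17% and 15.1% of all genes. Those that rose were Kalrn and Rgs3 (Kalrn is an exchange factor downstream of EphB receptors, and Rgs3 binds ephrin-B; log2 ratio 1.39 and 0.67) and those that fell were the adaptor Nck2 and Adam10, the protease that sheds ephrins (log2 ratio -0.54 and -0.51). In LSECs 1 of 24 rose (9.74% of all genes), Chn2 (at 1.27 ± 0.71 CPM at 12 h and 0.294 ± 0.169 CPM in WT), and 1 fell (8.5%), Tiam1 (log2 ratio -0.79). The response of 2 of 25 was higher in HSCs than in LSECs (1.9% of all genes), Tiam1 and Rgs3 (difference of log2 ratios 3.73 and 0.83). Tiam1 was barely detected in HSCs, at 0.428 ± 0.318 CPM at 12 h and 0.0526 ± 0.0444 CPM in WT (6 counts over 4 libraries). In LSECs it averaged 12.3 ± 4.56 CPM at 12 h and 21.4 ± 3.98 CPM in WT. Of 11 Slit, Robo, netrin and netrin receptor genes tested in HSCs at 12 h, 1 rose (17% of all genes), Slit3 (log2 ratio 1.39), and 4 fell (15.1% of all genes), Ntn1, Ntn3, Ntng2 and the netrin receptor Neo1. Ntn1, the netrin that repels or attracts axons through Dcc and Unc5 receptors, averaged 559.8 ± 129 CPM at 12 h and 1039 ± 65.4 CPM in WT (log2 ratio -0.91, SE 0.16, adjusted p = 0.0012), and Neo1 had a log2 ratio of -0.74. In LSECs 3 of 8 fell (8.5% of all genes), Ntn4, Ntng2 and Neo1 (log2 ratio -0.99, -1.29 and -0.64). At 36 h no gene of the 4 lists was called against WT in HSCs or LSECs, and none was called in hepatocytes in any comparison.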

How the data were processed

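The deposited files hold whole-number read counts per gene symbol, 24421 symbols and 5 lines that name no gene, one file for each of 36 libraries. Per the submitters' processing notes, the authors used FastQC 0.11.4, Trimmomatic 0.35, TopHat2 2.1.0 and SAMtools 0.1.18 with the mm10 build; no source used here gives the counting tool, its strand setting or its annotation. Lines naming no gene stayed out of library sizes; reads assigned to no feature were 4.9 to 9.02% of a library. Levels are counts per 1000000 gene counts, with no further scaling. Depth was 25404719 to 31734631 gene counts a library.

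Tests were edgeR 4.0.16 quasi-likelihood tests (R 4.3.3, limma 3.58.1) with TMM scaling, a filter on low counts (filterByExpr with a total of at least 15 and a minimum count of 10), and Benjamini-Hochberg adjustment over all genes tested, with 0.05 as threshold. Conditions were compared in a fit per cell type, cell types in a fit per condition, and the HSC response minus the LSEC response in a fit of their 24 libraries. SE is the log2 ratio divided by the square root of F. The code was tested on simulated data. Levels per kilobase used GENCODE vM21 exon unions; promoters came from RefSeq (GRCm38.p6).

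Members and lists were chosen with earlier results of these data known. Values per library are given for called members averaging 1 CPM or more in the higher group, up to 8 per comparison with WT, and for leading members by role and cell type; up to 4 called genes per pathway list and the 5 members with the smallest adjusted p in a response difference are named. Sema6a in the response difference, Epha2 and Efna1 at 36 h and genes at the edge of a result were named after their values were seen. Replicate numbers come from the titles. Deviations from the group means correlated over 0.1 in every same-numbered pair of HSC and LSEC libraries of a condition (0.185 to 0.508 in WT, 0.266 to 0.581 at 12 h and 0.167 to 0.334 at 36 h), of HSCs at 36 h and in WT (0.161 to 0.369), of HSCs at 36 h and LSECs in WT (0.205 to 0.328), and of hepatocytes at 36 h and in WT (0.531 to 0.685), and in no other pair of groups. Alternatives were DESeq2 1.42.0, its size factors, no filter, other sets of libraries in the fit, the replicate number as a block, a Malat1 term in hepatocytes and leaving out each library. Blocks within condition, and a fit without the libraries numbered 3 at 12 h and 4 at 36 h, were added after seeing the data.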

Additional observations from a re-analysis of the deposited data

Results flagged for a closer look

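The response at 12 h differed between HSCs and LSECs, by a test of the difference itself, for Plxnb1 (-3.472 on the log2 scale, HSC minus LSEC), Sema3a (-3.114), Plxnb3 (-2.61), Sema3f (-1.012), Sema4a (1.413) and Sema6a (1.34).

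In 18 of 249 groups of 4 libraries (7.23%) 1 library stood apart from the other 3 by Dixon's criterion, which chance meets in about 1 group in 20. Among WT HSCs these were Epha3 in replicate 3 (115.8 CPM, others 89.8 to 94.0), Epha4 in replicate 1 (11.6 CPM, others 4.63 to 5.73), Plxna1 in replicate 3 (153.3 CPM, others 175 to 177), Plxna4 in replicate 1 (13.92 CPM, others 2.62 to 4.11) and Sema4c in replicate 4 (89.33 CPM, others 67.9 to 69.9). In HSCs at 12 h it was Efna1 in replicate 1 (0.4296 CPM, others 1.14 to 1.28). In HSCs at 36 h they were Efnb1 and Plxnb1 in replicate 3 (145.2 CPM, others 154 to 155, and 134.1 CPM, others 144 to 146), Ephb3 in replicate 2 (42.42 CPM, others 34.6 to 35.4) and Sema6c in replicate 4 (141.8 CPM, others 191 to 195).

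Sema4c stood apart upwards in LSECs too, in WT replicate 1 (164.7 CPM, others 83.7 to 95.0) and in replicate 4 at 36 h (145.3 CPM, others 76.7 to 85.1). LSEC replicate 2 at 12 h stood apart for Epha1 (0.03811 CPM, others 0.376 to 0.442), Sema3f (730.9 CPM, others 616 to 632) and Sema4b (28.97 CPM, others 26.3 to 26.7). Hepatocyte replicate 2 at 36 h was low for Plxnb1 (5.666 CPM, others 30.2 to 34.2), Epha2 (7.746 CPM, others 11.3 to 11.8) and Plxna1 (2.367 CPM, others 4.15 to 4.34).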

How the results depend on the processing

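DESeq2 called 1 member at 36 h against WT in HSCs and 1 in hepatocytes (0 by edgeR in each), and 7 in LSECs at 12 h against WT (4 by edgeR). Over all genes DESeq2 called 124, 59 and 2797 in these comparisons, against 18, 0 and 2241 by edgeR. A fit of all 36 libraries called 3 members for the HSC minus LSEC difference at 12 h, against 6. All other counts stayed within 1.5 times. Leaving out 1 library gave 11 to 15 calls in HSCs at 12 h against WT (15), 11 to 14 at 36 h against 12 h (14), 4 to 6 in LSECs at 12 h against WT (4), 6 to 9 at 36 h against 12 h (8), 5 to 6 for the difference at 12 h (6), 32 to 35 members highest in 1 cell type in WT (34), 30 to 32 at 12 h (29) and 32 to 34 at 36 h (33), and 0 for comparisons of 36 h with WT, hepatocytes and the difference at 36 h. With the replicate block the counts were 17 for HSCs and 5 for LSECs at 12 h against WT, 14 and 8 at 36 h against 12 h, and 7 for the difference at 12 h, or 8 with the block within condition. The block moved no count by over 1.5 times. Over all genes it called 4298 and 2174, 3801 and 2455, and 599. The main fits called 4060 and 2241, 3537 and 2623, and 467. Counts over all genes were not recorded for alternatives other than DESeq2, this block and the Malat1 term. Of 47 calls of single members, 34 held under every alternative and 0 reversed. In the difference at 12 h, Sema3f was lost under the fit of all libraries (adjusted p = 0.146), Sema4a under that fit and without the libraries numbered 3 at 12 h and 4 at 36 h (0.106 and 0.0619), and Sema6a under 5 of 23 alternatives (adjusted p 0.00442 to 0.0785 over all). The cause was not tested. Levels near 0.1 CPM, such as Plxnb1 in WT LSECs, rest on few counts.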
